A study of Mus musculus with 24 samples.

Results

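The cytosolic ribosomal protein genes encode the proteins of the large and small subunits of the ribosome. They were chosen by symbol in the gene table of the array platform: Rpl or Rps, a number and at most a final a, x or l, together with Rplp0, Rplp1, Rplp2 and Rpsa, without the Rps6k kinases. Of 76 such symbols, 64 had a probe set that carried no other symbol, and these 64 of 22180 genes with such a probe set are described here by their brightest probe set. The other 12 (Rpl10, Rpl12, Rpl13a, Rpl23, Rpl24, Rpl31, Rpl35a, Rpl36, Rpl36a, Rps15a, Rps2 and Rps21) lay only on probe sets shared with other symbols and were not used. A filter on mean signal, at log2 7.416, left 52 of the 64 genes and 15526 genes in all for testing: 30 large subunit proteins, 20 small subunit proteins, and Rplp0 and Rplp1 of the P stalk, the lateral arm of the large subunit that recruits translation factors.

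The study measured RNA of mouse epididymal white adipose tissue (eWAT), a fat depot beside the testis, on 24 single-colour arrays, 1 per mouse, with 3 mice in each of 8 groups. CON mice carried Syt10-Cre/Cre x Bmal1-+/-, which is a Cre knocked into both copies of Syt10 and 1 functional copy of the clock gene Bmal1 (Arntl). MUT mice carried Syt10-Cre/Cre x Bmal1-flox/-, so that their only functional Bmal1 copy could be removed by Cre where Syt10 is expressed, which includes the suprachiasmatic nucleus (SCN), the central clock of the brain. Both genotypes thus shared the Cre alleles and a Bmal1 null allele in every tissue, adipose tissue included; age was not given in the sources used here. Mice were released from light-dark cycles into constant darkness and killed on the second day at circadian times CT1, CT7, CT13 and CT19, where CT0 is the start of the subjective day. The comparisons ask whether a fat depot keeps daily rhythms in transcript levels when the SCN clock is disabled.

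A second label names the source as mediobasal hypothalamus. The levels went with adipose tissue: the measured adipocyte markers had a median signal percentile of 99.8 among all genes, against 57.4 for neuronal markers and 56.8 for epididymis markers. The clock genes Nr1d1, Dbp, Per3 and Arntl all passed the rhythm test in both genotypes, and the largest rhythm of any gene was that of Nr1d1 in CON, with a log2 peak-to-trough size of 3.44 ± 0.17 (SE). On 3 CON arrays (replicates 2 and 3 of CT7, replicate 1 of CT13) the spread of signals over genes was narrow, with an SD of 0.999 to 1.021 against 1.028 to 1.12 on the other 21. Values are given with and without these arrays where that changed a call. A fit without them leaves only replicate 1 at CON CT7, so effect sizes are given for it and no p-values.

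A ribosome holds 1 copy of nearly every ribosomal protein, and cells make these proteins in matched amounts. Their mRNAs are among the most abundant of any cell and typically begin with a 5′ terminal oligopyrimidine (TOP) tract, a C followed by a run of pyrimidines, through which mTORC1 and LARP1 couple their translation to nutrients. In mouse liver, ribosomal protein synthesis is known to vary over the day mainly through translation of these mRNAs rather than through their amount, and array signal measures only their amount.

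The bases around the annotated start are shown for 7 of the members named below, since the TOP tract is the shared sequence feature of the family. Each window covers 15 bases before and 15 bases from the RefSeq transcript start (GRCm38.p6, written 5′ to 3′ on the gene's strand), and capitals mark its longest run of pyrimidines.
Rps6, chr4:86857353-86857382, minus strand: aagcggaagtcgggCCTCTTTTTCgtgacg
Rpl28, chr7:4792950-4792979, plus strand: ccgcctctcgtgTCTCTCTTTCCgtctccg
Rpsa, chr9:120127751-120127780, plus strand: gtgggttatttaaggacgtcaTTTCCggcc
Rps28, chr17:33824548-33824577, minus strand: ggtaccgcgtgcggTCTCgcgagagcgaaa
Rpl26, chr11:68901551-68901580, plus strand: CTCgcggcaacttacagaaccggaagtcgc
Rpl5, chr5:107900513-107900542, plus strand: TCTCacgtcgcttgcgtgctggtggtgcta
Rps13, chr7:116334176-116334205, minus strand: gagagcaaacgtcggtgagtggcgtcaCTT

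Rps6 and Rpl28 showed pyrimidine runs of 10 and 11 bases across the start, whereas the runs of Rpsa, Rps28, Rpl26, Rpl5 and Rps13 reached 5, 4, 3, 4 and 3 bases within the window. Those of Rpl26, Rpl5 and Rps13 touch an edge of the window and may continue beyond it. The window of Rpl9, not shown, had a longest run of 4 bases, and Rpl32 had no matched window. Start windows were matched for 49 of the 64 members (58 windows), and 48.3% of these windows held a run of at least 7 pyrimidines, against 18.6% of all 32851 windows of the same length. A C at the start followed by 4 pyrimidines stood in 11 of the 58 member windows and in 2.51% of all windows. Over the 300 bases from 250 before to 50 after the start, 37.9% of member windows held CCGGAAG on either strand, the core of an ETS factor motif, against 8.86% of all windows. The E-box CACGTG, the motif bound by CLOCK and BMAL1, was found in 10.3% of member windows and 7.15% of all windows, and TATAAA on either strand in 8.62% and 13.6%. These matches describe the sequence; an annotated start can lie some bases from the start used in the tissue, and a short run in a window says only that the letters are not there.

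Levels differed widely between probe sets of the family. The brightest members were Rps6, with a mean signal of log2 13.37 over 24 arrays, Rpl41 (13.33) and Rpl21 (13.05). The dimmest were Rpl10l (5.28) and Rpl32l (5.28), a testis-enriched paralogue and a gene annotated as Rpl32-like, and Rps29 (5.66). Signals of different probe sets depend on their probes and are not amounts of mRNA. Below the filter lay Rpl10l, Rpl32l, Rps29, Rps20, Rps13, Rpl30, Rps16, Rpl17, Rpl37, Rpl6, Rpl27a and Rplp2, most of which are core subunits that every cell makes, so a low signal here is no sign of an absent mRNA.

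Within a group of 3 mice the members varied as other genes did. The pooled within-group SD had a median of 0.102 over the 52 members and 0.103 over all genes tested. It was lowest for Rps6 (0.055), the small subunit protein phosphorylated by the S6 kinases, and highest for Rps7 (0.238). The median deviation of the members from their own means stayed between -0.101 and 0.094 on every array, and that of all genes tested between -0.029 and 0.027. As a description, pairs of members had a mean correlation of 0.10 over the 24 arrays (1326 pairs) against 0.015 for all pairs of genes tested, and these pairs share arrays, mice and groups. The highest pair was Rpl4 and Rps6 (0.858) and the lowest was Rps6 and Rps15 (-0.671). Rpl21 correlated with Rpl28 (0.83) and with Rps6 (0.825).

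**Figure D1:**
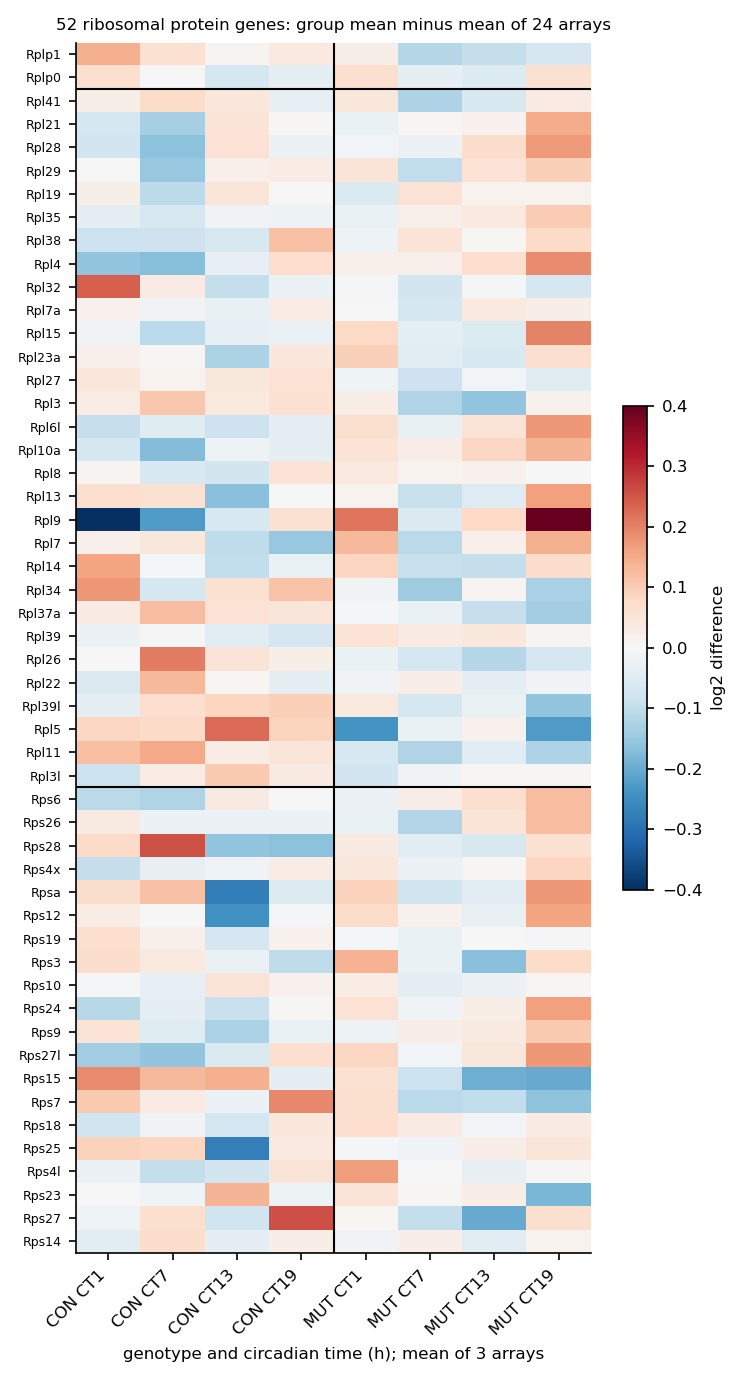
Group mean minus the mean of all 24 arrays (log2, colour) for the 52 tested genes in rows and the 8 genotype and time groups in columns; rows are ordered by P stalk, large and small subunit and then by signal, and colours saturate at 0.4 in either direction. Most cells are pale, with Rpl9 the darkest row, and no column is of 1 colour throughout.

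By group, the median deviation of the members ran from -0.029 at MUT CT7 to 0.054 at MUT CT19. At MUT CT19, 38 of 52 members were above their own mean, and at MUT CT7 15 of 52 were. All genes had medians of 0.002 and -0.010 in these groups. How many of all genes lay above their own mean is not given here. In CON the member medians were lowest at CT13 (-0.028) and highest at CT19 (0.017), with 0.015 at CT1 and -0.003 at CT7. All genes had -0.006 at CT13, 0.004 at CT19, 0.014 at CT1 and -0.004 at CT7.

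Daily rhythm in CON was found for few ribosomal protein genes. A 24-h cosine was fitted to the 4 group means, and its size is the log2 difference between fitted peak and trough. With limma, 3 of 52 members (5.77%) passed at an adjusted p under 0.05, against 17.1% of all genes tested: Rpsa, Rpl32 and Rps28. At an unadjusted p under 0.05, 13 of 52 members stood against 33.7% of all genes. The median fitted size was 0.15 for the members and 0.18 for all genes, with a median SE of 0.08 in both.

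Rpsa, the small subunit protein also known as the laminin receptor, had CON signals of log2 11.03, 10.94 and 11.01 at CT1 and of 11.09, 10.99 and 11.04 at CT7. At CT13 they were 10.49, 10.76 and 10.69, and at CT19 10.95, 10.79 and 10.86. All CT13 values lay below every value of the other 3 times. The fitted size was 0.39 ± 0.07 (SE; 1.31-fold) with a peak at CT2.74 (limma, adjusted p = 0.0036, n = 3 mice per time). Its second probe set, with a mean of 8.58, had a fitted size of 0.28 and a peak at CT4.26.

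Rpl32, a large subunit protein, was high at the start of the subjective day. Its CON signals were 11.79, 11.77 and 11.86 at CT1 and 11.72, 11.56 and 11.52 at CT7. They were 11.49, 11.39 and 11.54 at CT13 and 11.57, 11.50 and 11.56 at CT19. The CT1 values exceeded all 9 others, and the size was 0.34 ± 0.08 with a peak at CT1.63 (limma, adjusted p = 0.014). Without CON CT1 replicate 3 or CON CT13 replicate 2 the call was lost, with an adjusted p of up to 0.055.

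Rps28, which sits at the mRNA exit side of the small subunit, had the largest fitted size of the family in CON. Its signals were 11.43, 11.27 and 11.43 at CT1, 11.63, 11.46 and 11.58 at CT7, 10.99, 11.29 and 11.14 at CT13, and 11.12, 11.08 and 11.21 at CT19. The CT7 values lay above all the others. The size was 0.48 ± 0.13 with a peak at CT5.05 (limma, adjusted p = 0.031). This call was lost without any 1 of 7 CON arrays (replicates 1 and 3 of both CT1 and CT7, replicate 1 of CT13, replicates 1 and 2 of CT19), with an adjusted p of up to 0.074. It was also lost without the 3 arrays of narrow spread together, where the size was 0.519. A second Rps28 probe set, at a mean of 6.79, had a size of 0.095.

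Next in order and short of the threshold were Rpl4 with a size of 0.27 ± 0.08 (limma, adjusted p = 0.067), Rps25 with 0.37 ± 0.12 (0.071) and Rps6 with 0.19 ± 0.06 (0.072). Their fitted peaks did not share a time: CT17.18 for Rpl4, CT1.48 for Rps25 and CT15.67 for Rps6. Among the 3 genes that passed, the peaks lay within the first 6 h of the subjective day.

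**Figure D2:**
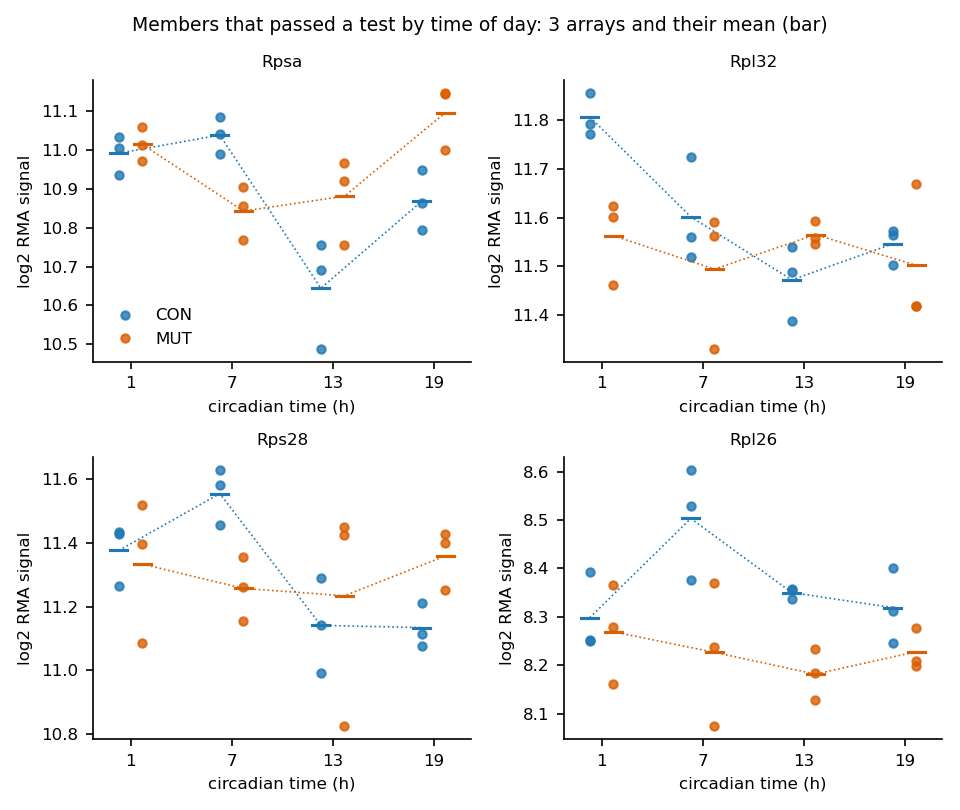
Log2 RMA signal of Rpsa, Rpl32, Rps28 and Rpl26 by circadian time (h); points are single mice, bars are means of 3, and dotted lines join the means of CON (blue) and MUT (orange). In CON, Rpsa is lowest at CT13, Rpl32 highest at CT1 and Rps28 highest at CT7, and Rpl26 is higher in CON than in MUT at CT7.

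In MUT, 0 of 52 members passed the rhythm test with limma, against 0.348% of all genes tested. At an unadjusted p under 0.05 there were 10 members of 52, against 14.6% of all genes. With array weights, which also raised the count over all genes, 4 members passed. The smallest p was that of Rpsa, whose MUT signals were 10.97, 11.06 and 11.01 at CT1 and 10.86, 10.77 and 10.90 at CT7. At CT13 they were 10.92, 10.97 and 10.76, and at CT19 11.15, 10.999 and 11.14. The CT7 and CT13 values overlapped, and so did those of CT1 and CT19; the size was 0.29 ± 0.07 with a peak at CT20.85 (limma, adjusted p = 0.12). The next 3 were Rps3, at the mRNA entry of the small subunit, with 0.32 ± 0.09 (limma, adjusted p = 0.16), Rpl15 with 0.27 ± 0.08 (0.19) and Rpl9 with 0.49 ± 0.15 (0.21). The median size in MUT was 0.15 for the members and 0.13 for all genes. Rpl32 had a fitted size of 0.008 in MUT, and its MUT signals ran from 11.33 to 11.67 with all 4 times overlapping.

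**Figure D3:**
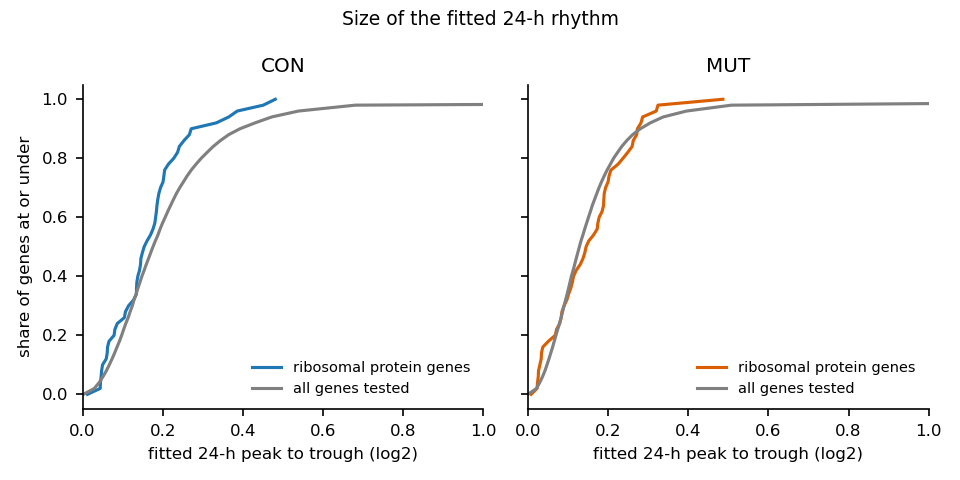
Share of genes (vertical axis) with a fitted 24-h peak-to-trough size (log2, horizontal axis, drawn up to 1) at or under each value, for the 52 ribosomal protein genes (colour) and all 15526 genes tested (grey), in CON and MUT. In CON the members' largest size is 0.48 while all genes reach 3.44; the medians are 0.15 and 0.18 in CON and 0.15 and 0.13 in MUT.

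The rhythm itself differed between genotypes for 1 member of 52 (limma, adjusted p under 0.05), against 1.44% of all genes tested; at an unadjusted p under 0.05 there were 5 members, against 15.7% of all genes. The member that passed was Rpsa, for which the difference of the 2 fitted waves had a size of 0.47 ± 0.10 (adjusted p = 0.044). Its peak lay at CT2.74 in CON and at CT20.85 in MUT, a shift of -5.89 h. MUT minus CON was 0.02 at CT1 and -0.20 at CT7, then 0.24 at CT13 and 0.23 at CT19, and none of these 4 differences passed on its own, with an adjusted p of 0.12 at CT13 and 0.082 at CT19. The adjusted p was close to the threshold: it passed 0.05 when any 1 of 15 arrays was left out (up to 0.11). It also did so with the letters of the sample titles as a replicate block (0.065) and for the mean of both Rpsa probe sets (0.15). Without the 3 arrays of narrow spread the call was lost too, and the difference had a size of 0.491. For Rpl32 the difference had a size of 0.34 ± 0.11 (adjusted p = 0.21) and for Rps28 0.54 ± 0.18 (0.23), so a change in their rhythm was not shown although neither passed the rhythm test in MUT.

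The daily mean over the 4 times showed small shifts in both directions. With limma, 13 of 52 members (25%) passed, 7 higher and 6 lower in MUT, against 21.7% of all genes tested (12.3% higher and 9.42% lower). At an unadjusted p under 0.05, 20 members stood against 38.0% of all genes. The median difference was 0.02 for the members and 0.003 for all genes. The split depended on scaling: 5 of 13 called members were higher with quantile normalization, 13 of 17 with arrays shifted to the same median, and 1 of 10 after a trend on signal level was removed. The split of all genes under these scalings is not given here. The 13 calls did not hold without the 3 arrays of narrow spread, a fit that has fewer mice and only replicate 1 at CON CT7. Their differences kept their direction in it, from -0.192 for Rpl5 to 0.304 for Rpl9. How far these arrays or the smaller number of mice account for the lost calls was not tested.

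Higher in MUT were Rpl9, Rpl10a, Rpl4, Rps27l, Rpl6l, Rpl28 and Rps6. Rpl9, a large subunit protein near the base of the P stalk, ranged from 9.26 through a median of 9.78 to 10.21 in the 12 CON mice and from 9.83 through 10.06 to 10.69 in the 12 MUT mice, so the genotypes overlapped. It was higher by 0.32 ± 0.08 (1.25-fold; limma, adjusted p = 0.0069), the largest difference among tested members. At CT1 its values were 9.82, 9.26 and 9.51 in CON and 10.11, 10.04 and 10.33 in MUT, without overlap. The difference there was 0.63 ± 0.15 (adjusted p = 0.096). A second, dim Rpl9 probe set (mean 7.35) differed by -0.05.

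Rps6 ranged from 13.23 through 13.30 to 13.48 in CON and from 13.28 through 13.42 to 13.56 in MUT. It was higher by 0.10 ± 0.03 (1.07-fold; limma, adjusted p = 0.024). Rpl28, a large subunit protein, ranged from 12.64 through 12.84 to 12.995 in CON and from 12.80 through 12.92 to 13.10 in MUT, and was higher by 0.10 ± 0.03 (adjusted p = 0.028). Both are among the 4 brightest members. Rpl10a of the L1 stalk was higher by 0.15 ± 0.04 (adjusted p = 0.015) and Rpl4, which lines the exit tunnel for the new protein, by 0.15 ± 0.04 (0.018). The second Rpl4 probe set, at 8.37, differed by -0.01.

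Rps27l and Rpl6l are named as copies of Rps27 and Rpl6. Rps27l, a target gene of p53, ranged from 8.94 through 9.09 to 9.31 in CON and from 9.10 through 9.21 to 9.45 in MUT, a rise of 0.14 ± 0.04 (limma, adjusted p = 0.018). Its partner Rps27 differed by -0.11 ± 0.07 (adjusted p = 0.24). Rpl6l was higher by 0.13 ± 0.05 (adjusted p = 0.049), a call lost without any 1 of 17 arrays. Of the other pairs, Rpl39l differed by -0.11 ± 0.04 (adjusted p = 0.073) and Rpl39 by 0.07 ± 0.04 (0.22). Rpl3l differed by -0.04 ± 0.04 and Rpl3 by -0.12 ± 0.05, Rps4l by 0.07 ± 0.04 and Rps4x by 0.06 ± 0.04, none of which passed. No difference between a copy and its partner was tested.

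Lower in MUT were Rpl5, Rps15, Rpl11, Rpl26, Rpl37a and Rplp1. Rpl5 and Rpl11 carry 5S rRNA into the large subunit and, when free, bind Mdm2, the ligase that degrades p53. Rpl5 ranged from 7.73 through 7.93 to 8.19 in CON and from 7.41 through 7.69 to 7.99 in MUT. It was lower by 0.24, with a 95% interval of the difference from -0.35 to -0.12 (limma, adjusted p = 0.0067), and its fitted difference was below 0 at all 4 times, from -0.32 at CT1 and CT19 to -0.10 at CT7. Rpl11 ranged from 7.64 through 7.89 to 8.07 in CON and from 7.57 through 7.74 to 7.90 in MUT, and fell by 0.17 (SE 0.05, adjusted p = 0.016).

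Rps15, in the head of the small subunit, ranged from 8.36 through 8.78 to 9.02 in CON and from 8.22 through 8.49 to 8.96 in MUT, and fell by 0.21 (SE 0.07; limma, adjusted p = 0.027). Rpl37a, a zinc-binding protein of the large subunit, ranged from 8.83 through 8.92 to 9.04 in CON and from 8.63 through 8.77 to 8.99 in MUT, and fell by 0.13 (SE 0.03, adjusted p = 0.011). Rpl5, Rpl9, Rpl37a and Rps15 were the 4 members called under all 3 other scalings. With quantile normalization Rpl10a (0.096, limma, adjusted p = 0.13), Rpl6l (0.075, 0.26), Rps27l (0.107, 0.067) and Rpl11 (-0.129, 0.067) lost the call. These 4 also lost it with the trend on signal level removed (adjusted p from 0.076 to 0.33), as did Rpl4 (0.096, 0.10), Rps6 (0.072, 0.0998) and Rpl28 (0.071, 0.14). With arrays shifted to the same median Rpl26 (-0.097, 0.052) and Rplp1 (-0.082, 0.13) lost it. With probe sets averaged per gene Rpl4 (0.067, 0.17) and Rplp1 (-0.112, 0.097) did. Rps15, Rpl28 and Rplp1 lost the call without any 1 of 5, 4 and 11 arrays.

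In the P stalk, Rplp1 ranged from 11.85 through 12.05 to 12.18 in CON and from 11.70 through 11.97 to 12.05 in MUT and fell by 0.13 (SE 0.04; limma, adjusted p = 0.037). Rplp0, the protein that anchors the stalk, differed by 0.02 ± 0.05 (adjusted p = 0.77). Their fitted rhythms in CON, 0.14 for each, did not pass. Rplp2, the second acidic protein of the stalk, lay below the filter. In a fit without the filter, which called 18.0% of 22180 genes, Rplp2 fell by 0.27 (SE 0.06, adjusted p = 0.0057), with CON values from 7.11 to 7.66 and MUT values from 6.89 to 7.22.

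**Figure D4:**
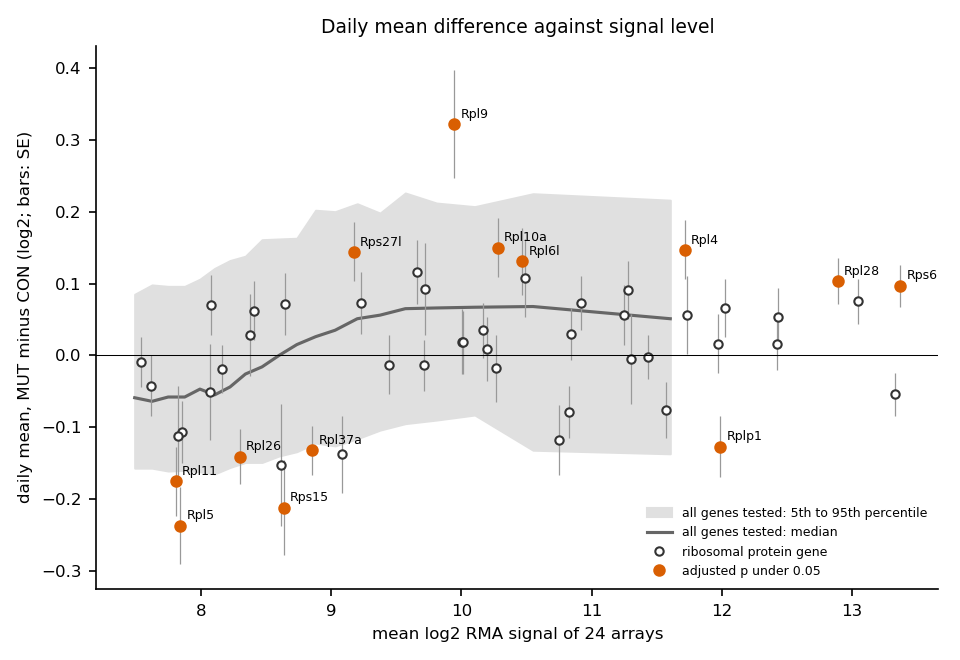
Daily mean difference, MUT minus CON (log2, vertical axis; bars are SE), against mean log2 signal of 24 arrays for the 52 members (circles; orange where limma's adjusted p is under 0.05), over the median and the 5th to 95th percentile of all genes tested in 20 bins of signal (grey). The median of all genes rises from below 0 at low signal to above 0 at high signal, and 5 of the 6 members called lower lie left of 9.

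Signal level moved with the direction of these differences. Among the 12 members between the filter and the 60th percentile of signal, the median difference was -0.05 and 0 were called higher and 3 lower. All 6655 genes in that range had a median of -0.05, with 248 called higher and 1064 lower. Among the 40 brighter members the median was 0.03, with 7 higher and 3 lower. All 8871 genes of that range had 0.05, with 1654 higher and 399 lower, so the lean was shared with genes in general. The part of signal level in these shifts was not tested. Markers of other cell types also moved with the groups: 3 of 8 mesothelial and 2 of 8 fibroblast and preadipocyte markers were higher in MUT and 0 lower, against 12.3% of all genes higher. In other lists, 1 of 8 adipocyte, 1 of 7 macrophage, 1 of 5 smooth muscle and pericyte and 0 of 6 endothelial markers were higher, and 0 lower. Of 6 neuronal markers 1 was higher and 2 lower, and of 2 epididymis markers 1 was lower, against 9.42% of all genes lower. Within CON, 7 of 8 mesothelial, 4 of 8 fibroblast and preadipocyte, 3 of 7 macrophage and 3 of 6 endothelial markers passed the rhythm test, against 17.1% of all genes. Of adipocyte markers 2 of 8 passed, and of smooth muscle and pericyte markers 1 of 5. None passed of 6 neuronal, 2 epididymis, 2 B cell and 1 T cell markers. The endothelial ones, Kdr, Cdh5 and Tie1, had fitted peaks at CT1.12, CT3.48 and CT3.14. The macrophage ones, Csf1r, Mrc1 and Adgre1, had them at CT18.22, CT19.81 and CT17.11. Those of the fibroblast and preadipocyte markers lay from CT16.96 (Pi16) to CT18.25 (Dpp4). The mesothelial markers Krt8, Upk3b, Krt19 and Muc16, those with the smallest p, had them at CT17.33, CT17.96, CT16.99 and CT18.19. The summed mesothelial signal ranged from 11.58 to 11.66 at CON CT7, where 2 of 3 arrays are of narrow spread, and from 11.71 to 12.50 at MUT CT7. The genotypes overlapped in it at CT1 (11.81 to 12.29 in CON, 12.20 to 12.46 in MUT), CT13 (12.22 to 12.76, 12.14 to 13.24) and CT19 (12.46 to 12.71, 12.55 to 13.04). Other summed signals were also higher at MUT CT7 without overlap. They were adipocyte (15.97 to 15.99 in CON, 16.05 to 16.07 in MUT) and smooth muscle and pericyte (12.64 to 12.71, 12.93 to 13.24). So were fibroblast and preadipocyte (13.43 to 13.62, 13.71 to 13.85) and macrophage (12.12 to 12.19, 12.23 to 12.27). T cell markers were lower there (9.25 to 9.31, 9.08 to 9.13), and endothelial, B cell and neuronal ones overlapped. The part of these markers in the members' values was not tested, and in whole tissue fewer cells of a type and less RNA per cell cannot be told apart. With probe sets of identical values counted once (Rpl23a, Rps12 and Rps19 have such sets), 16 tested members had several sets above the filter, of which 8 had daily differences of 1 sign and 8 of both signs, among them Rpsa (0.07 and -0.07) and Rpl41, whose 5 sets ran from -0.05 to 0.09.

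At single times, 1 member passed at 1 time. At CT7, Rpl26, a large subunit protein that also binds p53 mRNA, had signals of 8.38, 8.53 and 8.60 in CON and 8.37, 8.07 and 8.24 in MUT, without overlap. It was lower by 0.28, with a 95% interval of the difference from -0.43 to -0.12 (limma, adjusted p = 0.041), 1 of 52 members against 4.05% of all genes tested, and 14 members had an unadjusted p under 0.05, against 20.6%. The call was lost without CON CT7 replicate 2 or 3 or MUT CT7 replicate 2 or 3. Without the 3 arrays of narrow spread, which leaves only replicate 1 at CON CT7, it was lost too, and the difference was -0.15. The call was also lost with the title letters as a replicate block (adjusted p = 0.053), with arrays shifted to the same median (0.066), with the signal trend removed (0.056), with no filter (0.052) and with the arrays of CT7 alone (0.10). Over the day Rpl26 fell by 0.14 (SE 0.04; adjusted p = 0.014).

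At CT1, 0 of 52 members passed, against 0.0451% of all genes tested, and 6 had an unadjusted p under 0.05, against 11.5%. After Rpl9 came Rpl32 with -0.24 ± 0.08 (limma, adjusted p = 0.20), Rpl5 with -0.32 ± 0.11 (0.23) and Rps27l with 0.22 ± 0.08 (0.28). At CT13, 0 members passed, against 0.322% of all genes, and 5 had an unadjusted p under 0.05, against 19.8%. The 4 smallest p-values were those of Rpsa with 0.24 ± 0.07 (adjusted p = 0.12), Rps25 with 0.30 ± 0.12 (0.17), Rps15 with -0.34 ± 0.13 (0.17) and Rpl26 with -0.17 ± 0.08 (0.22). At CT19, 0 members passed, against 2.74% of all genes, and 13 had an unadjusted p under 0.05, against 22.8%. Rpsa led with 0.23 ± 0.07 (adjusted p = 0.082), then Rpl28 with 0.19 ± 0.06 (0.093), Rpl39l with -0.25 ± 0.09 (0.095) and Rpl5 with -0.32 ± 0.11 (0.099). With arrays shifted to the same median, Rpsa passed at CT13, and Rpsa and Rpl28 passed at CT19.

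Rps13, a small subunit protein, was not among the tested members because the mean of its probe set over both genotypes, log2 6.58, lay below the filter at 7.416. Its CON signals were 7.79, 7.81 and 8.05 at CT1, 7.86, 7.64 and 7.73 at CT7, and 7.68, 8.16 and 8.01 at CT13. At CT19 they were 8.61, 7.66 and 5.57. Its MUT signals were 5.47, 5.90 and 5.77 at CT1, 5.35, 5.23 and 5.63 at CT7, 5.31, 5.64 and 5.07 at CT13, and 5.49, 5.30 and 5.21 at CT19. Thus 11 of 12 CON mice lay between 7.64 and 8.61, all above the filter, whereas the 12 MUT mice lay between 5.07 and 5.90 and CON CT19 replicate 3 lay among them. The MUT mean stood at the percentile 5.16 of the signals of all genes, near the dimmest members such as Rpl10l (5.28), so a MUT signal above background was not shown and the differences may understate a change.

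In the fit without the filter, the Rps13 signal differed by -2.27 over the day (SE 0.20; limma, adjusted p = 2.67e-06), which had the smallest p of all 22180 genes. It passed at every time, with differences of -2.17 at CT1 (adjusted p = 0.048), -2.34 at CT7 (0.0034), -2.61 at CT13 (0.010) and -1.95 at CT19 (0.020). Without the filter 0.0586%, 2.52%, 0.131% and 1.51% of all genes were called at these times. Without CON CT19 replicate 3, a choice made after seeing the data, the daily difference was -2.48 ± 0.10 and that at CT19 -2.80 ± 0.21. Leaving out the only CON value in the MUT range enlarges the difference by construction, so no p-value is given for that fit. No rhythm of Rps13 passed in either genotype (adjusted p = 0.69 in CON and 0.87 in MUT).

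On that array Nr1d1, Arntl, Clock and Syt10 lay with CON, whereas Dbp and Per3 did not tell the genotypes apart. Nr1d1 was 9.61 on it, 9.54 and 9.12 on the other CON CT19 arrays and 11.24 to 11.95 on the MUT CT19 arrays. Arntl was 9.46 against 9.52 and 9.64 in CON and 8.96 to 9.38 in MUT. Clock was 11.23 against 11.28 and 11.10 in CON and 11.33 to 11.42 in MUT. Syt10 was 7.64 against 7.53 and 7.68 in CON and 7.25 to 7.43 in MUT. Dbp, at 8.60, was near the other CON values (8.58 and 8.39) and within the MUT range of 8.57 to 9.30. Per3, at 9.11, lay above the other CON values (8.82 and 8.56) and also above the MUT range of 8.87 to 9.08. Over the 15526 genes tested, its deviations correlated with those of the other CON CT19 arrays (0.23) and not positively with those of MUT CT19 (-0.11), as a description.

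The probe sets that Rps13 shares with other symbols did not follow, and whether the signal of its own set measures the amount of Rps13 mRNA was not tested. The set shared with Snord14a, a small nucleolar RNA inside the gene, had medians of 7.90 in CON and 7.86 in MUT, and one shared with Gm15483 and the pseudogene Rps13-ps4 had 7.93 and 7.84. Another set shared with Gm15483 and Rps13-ps4 went the opposite way, with CON values from 8.21 through 8.64 to 9.81 and MUT values from 9.51 through 9.82 to 10.40. On this set CON CT19 replicate 3 gave 9.81, the highest CON value and close to the MUT median. Rps13 lies on chromosome 7, as does Arntl, with 15 protein-coding genes between them in RefSeq. Of these, 11 were tested and 2 passed for the daily mean (Far1 and Copb1), against 21.7% of all genes tested, with differences over the 11 from -0.14 to 0.20; Arntl itself differed by 0.11 (adjusted p = 0.28).

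**Figure D5:**
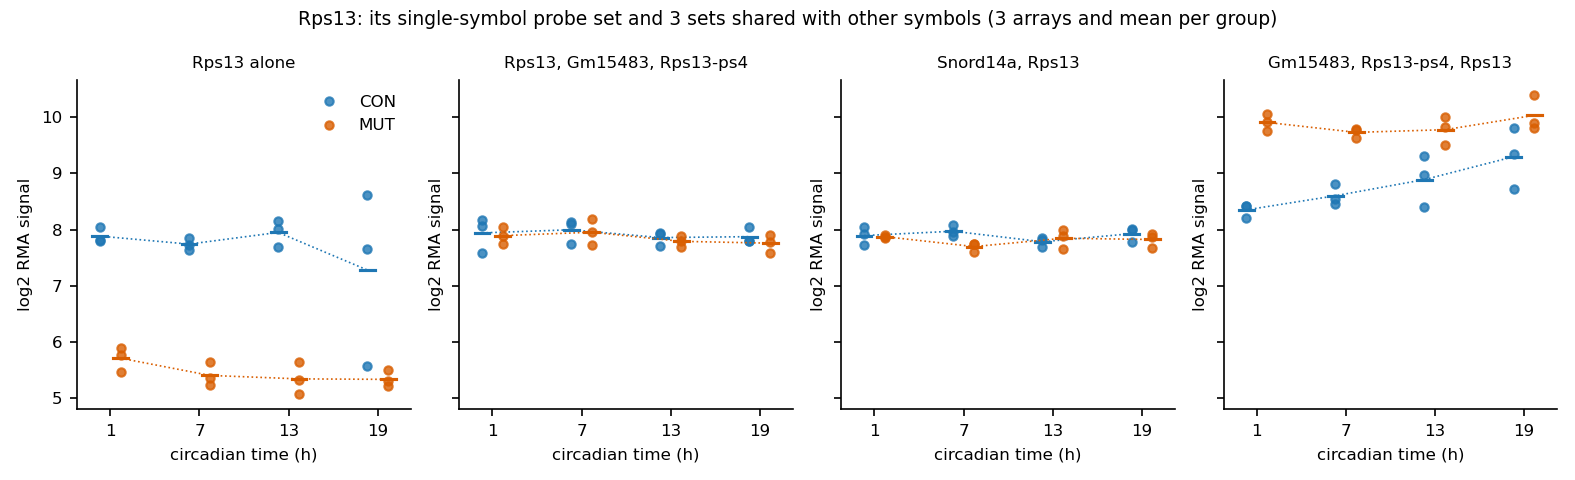
Log2 RMA signal by circadian time (h) for the probe set of Rps13 alone and for the 3 probe sets it shares with other symbols; points are single mice, bars are means of 3, CON in blue and MUT in orange. The first panel separates the genotypes except for 1 CON mouse at CT19, panels in the middle show overlap, and in the last panel MUT is higher.

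Other genes of ribosome production were read for comparison. Of 67 tested mitochondrial ribosomal protein genes, 18 (26.9%) passed the rhythm test in CON, led by Mrpl54 with 0.76 ± 0.11 and Mrps35 with 0.45 ± 0.08. Of 70 genes of ribosome assembly 13 passed, of 30 initiation factors 7, of 18 genes of RNA polymerase I transcription 5, of 22 regulators of mTORC1 and TOP mRNAs 7, of 10 snoRNA host genes 3 and of 9 elongation factors 2. The background was 17.1% in each case. Among these, Eif4e, the cap-binding factor, had 0.48 ± 0.09 (limma, adjusted p = 0.0032) and Rheb, the activator of mTORC1, 0.41 ± 0.09 (0.0074). None of these lists had a member with a rhythm in MUT, where 0.348% of all genes tested passed. Rpl7l1, a paralogue of Rpl7 outside the symbol rule, had 0.75 ± 0.12 with a peak at CT17.08 (adjusted p = 0.00084), larger than any ribosomal protein gene tested. No difference between lists was tested.

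In the daily mean, against 21.7% of all genes tested (12.3% higher, 9.42% lower), 11 of 67 mitochondrial ribosomal protein genes passed (16.4%; 5 higher, 6 lower) and 10 of 70 assembly genes (14.3%; 8 higher, 2 lower). Of 30 initiation factors 4 passed (13.3%) and of 22 mTORC1 and TOP regulators 5 (22.7%), with 0 lower in either list. The nucleolar protein Npm1 was higher by 0.21 ± 0.05 (limma, adjusted p = 0.0090), Eif4e by 0.16 ± 0.04 (0.019) and Rheb by 0.15 ± 0.04 (0.023). Fau, which encodes the small subunit protein S30 as a fusion with a ubiquitin-like protein, was higher by 0.12 ± 0.04 (0.024). Of 10 tested genes of p53 and ribosome quality control 4 passed, 3 higher and 1 lower. Cdkn1a was higher by 0.38 ± 0.08 (limma, adjusted p = 0.0048), Gcn1 by 0.24 ± 0.05 (0.0059) and Mdm2 by 0.17 ± 0.05 (0.017), and Atf4 fell by 0.10 (SE 0.035, adjusted p = 0.045). No elongation factor and no snoRNA host gene passed.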

How the data were processed

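Each of the 24 samples is 1 array. The deposited log2 values were made by the authors with RMA in Affymetrix Expression Console, per the submitters' processing notes; neither version was stated there. RMA quantile-normalizes arrays, so values are relative to each array. The table has 34390 probe sets, of which 23521 name 1 gene, 1814 name several and 9055 name none; the brightest single-symbol set stands for a gene. Genes whose mean signal lay below the 30th percentile were not tested.

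limma 3.58.1 (R 4.3.3) fitted the 8 group means (16 residual df); rhythms were cosine and sine contrasts (F test), and p-values were Benjamini-Hochberg adjusted over 15526 genes. The pipeline was tested on simulated data. The number of arrays limits precision. The members and gene lists were chosen with earlier results of these data known. Members named are the smallest adjusted p-values per comparison, the P stalk and Rpsa, copies ending in l, the extremes of signal, difference and rhythm, and those under the filter. No pairing of mice by the letters a to c of the titles was seen (84 same-letter pairs, correlations -0.431 to 0.337, mean -0.015). These correlations cannot show that the letters mark nothing shared.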

Additional observations from a re-analysis of the deposited data

Results flagged for a closer look

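The rhythm of Rpsa differed between MUT and CON in the test of the difference itself: the 2 fitted waves differed by 0.475 on the log2 peak-to-trough scale (limma, adjusted p = 0.044, 3 mice per group and time). This call was close to the threshold. It was lost with the replicate block (limma, adjusted p = 0.065), with no filter (0.060) and for the mean of both probe sets (0.15). The rhythm of Rpsa in MUT did not pass on its own. The probe set shared by Gm15483, Rps13-ps4 and Rps13, which entered no comparison because it carries several symbols, was higher in MUT than in CON by 1.078 on the log2 scale, opposite to the probe set of Rps13 alone.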

How the results depend on the processing

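Of the 18 named calls, none changed direction under any alternative, 10 held when each of the 24 arrays was left out in turn, and 2 held under every other alternative. Counts of members called moved by over 1.5 times as follows. In CON, rhythms numbered 5 of 40 with a filter at the 60th percentile and 8 with array weights, against 3, and 1 to 4 with 1 array left out. In MUT they numbered 4 with array weights and 0 with any array left out. For the rhythm difference, 0 passed with the replicate block of title letters, with no filter and with probe sets averaged per gene. With array weights 2 passed, and 0 to 2 with 1 array left out. For the daily mean, 9 (without CON CT19 replicate 2) to 16 (without MUT CT19 replicate 3) passed with 1 array left out, and the replicate block gave 12. At CT7, 2 passed with quantile normalization (Rpl26 and Rpsa) and with the signal trend removed (Rpl41 and Rpsa, without Rpl26). At that time 1 passed with no filter (Rps13, without Rpl26) and 10 with array weights. With arrays shifted to 1 median, with the replicate block and with the arrays of that time alone 0 passed, and 0 to 2 with 1 array left out. At CT13, 1 passed with shifted arrays and 1 (Rps13) with no filter; at CT19, 2 with shifted arrays, 5 with array weights and 1 with no filter; at CT1, 1 with no filter; with 1 array left out, 0 at each of these times. The causes were not tested. No pairing of mice by the title letters was seen, and 4 of 24 arrays correlated best with their own letter. The calls for the rhythm difference, the daily mean and CT7 did not hold without the 3 arrays of narrow spread, a fit with only replicate 1 at CON CT7. Among all genes, the daily mean also had fewer calls in that fit, and array weights moved rhythms in MUT from 54 to 555. Shares over all genes are not given for the other settings, so the moved counts of members are not read as changes of the family.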
